A study of Harpegnathos saltator with 22 samples.

Results

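The genes described are AlaRS (LOC105181115), alpha-PheRS (LOC105182811), AsnRS (LOC105185391), AspRS (LOC105191341) and ArgRS (LOC105190736), 5 of the 13693 genes measured in ovaries of Harpegnathos saltator, an ant. They were chosen by gene ID as genes of cytosolic aminoacyl-tRNA synthetases, and all 5 had a fold change and a p-value, raw and adjusted, in all 3 comparisons of the study. None of them changed detectably after siRNA against Kr-h1 in either caste. As deposited, AlaRS alone passed the authors' test between castes, which 53.2% of 12338 genes tested passed. The level of AlaRS fell by 20.5% in worker relative to gamergate ovaries. With the fold changes scaled in other ways, 3 or 4 of the members were called.

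The study sequenced polyadenylated RNA from the ovaries of single ants, 22 in all. Mature gamergates, which are workers that have become egg layers, had received dicer-substrate siRNA against the control target GFP (6 ants) or against Kr-h1 (7 ants). Mature workers had received the control siRNA (5 ants) or the Kr-h1 siRNA (4 ants). Each ant was injected in the head, with glucose and a transfection reagent in every group, and the ovaries were dissected 24 h later. The labels spell the control GFP and the injection protocol GRP, and they give no age, colony or strain. Kr-h1 encodes a zinc-finger transcription factor that responds to juvenile hormone. The ovary was thus not the injected part, and these data do not show where in the ant the siRNA acted.

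Aminoacyl-tRNA synthetases attach each amino acid to its own tRNA, and the charged tRNAs are what the ribosome reads a message with. A growing oocyte is stocked with ribosomes, messages and proteins by nurse and follicle cells, so the ovary is a tissue of heavy protein synthesis. Synthetases fall into class I and class II by the fold of their catalytic domain. ArgRS belongs to class I and AlaRS, AsnRS, AspRS and the phenylalanine enzyme to class II. alpha-PheRS encodes 1 of the subunits of the phenylalanine enzyme, which works only together with the subunit encoded by beta-PheRS. In vertebrates ArgRS and AspRS sit in a large complex of several synthetases held together by scaffold proteins, and AlaRS, AsnRS and PheRS do not.

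The files used here hold no value for a single ant. For each comparison the authors' deposited table gives the mean normalized count over the ants compared, the log2 fold change and its p-value, raw and adjusted, so the depth of each library and the spread between ants are not shown. A group mean below is the mean count of a comparison split by its fold change and by the number of ants, and has no error of its own. A standard error (SE) was recovered from each fold change and its p-value, and a gene is called where the deposited adjusted p is under 0.05. Normalized counts are not divided by transcript length, so levels are compared between groups for 1 gene and never between genes. Kr-h1 itself had a mean of 42.3 counts in the gamergate and 38.7 in the worker comparison and was called in neither (log2 0.26 and -0.48 in the authors' deposited table, recovered SE 0.47 and 0.70, adjusted p = 0.734 and 0.706, DESeq2). The germline genes vas, orb and BicD had means of at least 1373 counts in each comparison. Genes of muscle and fat body were detected too, and in a bulk ovary fewer cells of a type cannot be told apart from less RNA per cell.

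**Figure D1:**
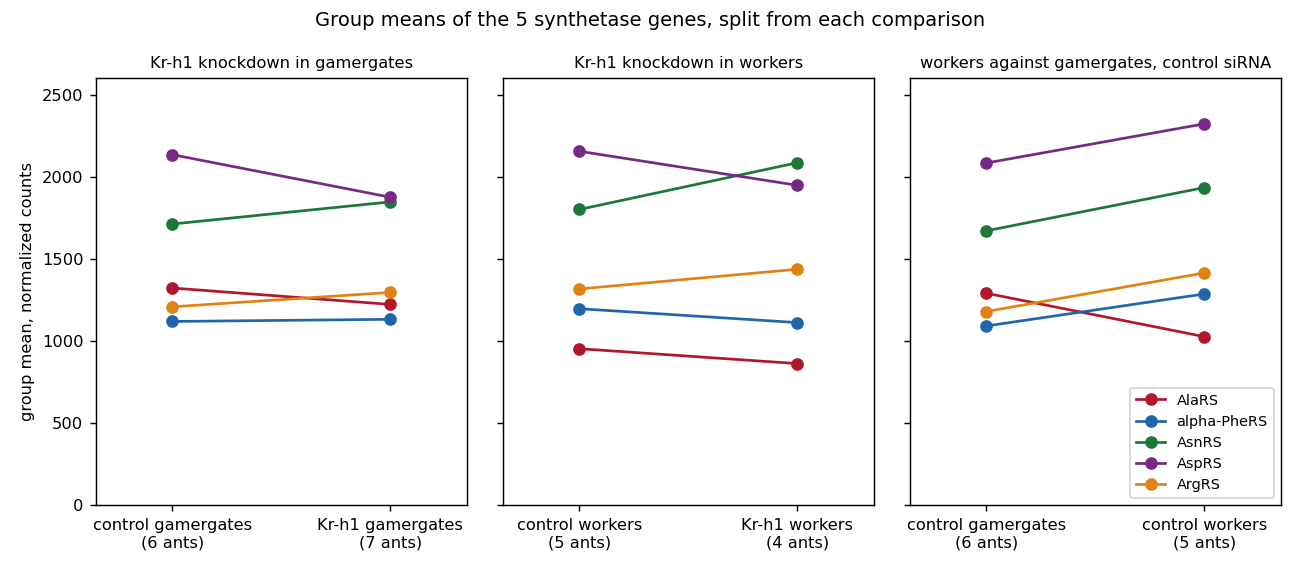
Group means of the 5 synthetase genes in normalized counts (vertical axis from 0), split from the mean count and fold change of each comparison, with 1 line per gene joining the groups compared. Lines slope in both directions in the knockdown panels, such as AspRS in gamergates (2136 to 1877) and AsnRS in workers (1802 to 2087), without a call. In the right panel AlaRS goes from 1292 in control gamergates to 1028 in control workers while the other 4 lines slope upward.

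In gamergate ovaries none of the 5 genes was called after Kr-h1 siRNA, and their fold changes were small in both directions. AlaRS, the alanine enzyme, had a group mean of 1324 normalized counts in control and 1224 in Kr-h1 gamergates, a log2 fold change of -0.11 in the authors' deposited table (recovered SE 0.061, adjusted p = 0.182, DESeq2). alpha-PheRS had group means of 1120.1 and 1133 counts, with a deposited log2 fold change of 0.017 (recovered SE 0.076, adjusted p = 0.899, DESeq2). The asparagine enzyme gene AsnRS had group means of 1713 and 1848 counts and a deposited log2 fold change of 0.11 (recovered SE 0.074, adjusted p = 0.303, DESeq2). These 3 genes thus differed between the siRNA groups by less than 10% of the control level. AspRS, the aspartate enzyme, stood at 2136 counts in control and 1877 in Kr-h1 gamergates, the widest difference of the 5. Its log2 fold change in the authors' deposited table was -0.19 (recovered SE 0.094, adjusted p = 0.152, DESeq2), with an unadjusted p of 0.0469 by that tool. ArgRS, the arginine enzyme and the 1 class I member, had 1209 and 1297 counts and a deposited log2 fold change of 0.10 (recovered SE 0.054, adjusted p = 0.178, DESeq2).

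Across the 5 genes the count of calls was 0, and 1 gene, AspRS, had an unadjusted p under 0.05. By the same DESeq2 calls of the authors' deposited table, 14.8% of the 11145 genes tested in gamergates were called, and 28.1% of genes with a p-value had an unadjusted p under 0.05. The median log2 fold change of the 5 was 0.017, with 3 positive and 2 negative, beside 0.0014 over all genes tested. The median size of a change, without its sign, was 0.11 for the 5 and 0.21 for all genes tested. Members were measured with a median recovered SE of 0.074, beside 0.093 for the 3546 tested genes with a mean of at least 1000. Their 95% intervals reach from a fold of 0.773 at the lower end for AspRS to 1.19 at the upper end for AsnRS. Changes beyond that range lie outside the intervals of all 5 genes.

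In worker ovaries again none of the 5 genes was called after Kr-h1 siRNA. AlaRS had a group mean of 954 counts in control and 864 in Kr-h1 workers, a log2 fold change of -0.14 in the authors' deposited table (recovered SE 0.12, adjusted p = 0.479, DESeq2). alpha-PheRS had 1198 and 1113 counts and a deposited log2 fold change of -0.11 (recovered SE 0.15, adjusted p = 0.704, DESeq2). AsnRS, with 1802 and 2087 counts, had the largest change of the 5, a deposited log2 fold change of 0.21 (recovered SE 0.20, adjusted p = 0.527, DESeq2). The 95% interval of each of these 3 changes included 0. AspRS had 2157 and 1949 counts and ArgRS 1318 and 1438, with log2 fold changes of -0.15 and 0.13 in the authors' deposited table (adjusted p = 0.460 and 0.682, DESeq2). AlaRS and AspRS were lower, and AsnRS and ArgRS higher, in the Kr-h1 group of both castes, but no one of these values passed the test.

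The worker count of 0 calls by DESeq2 stands beside 4.92% of 10577 genes tested in the authors' deposited table, and 0 of the 5 had an unadjusted p under 0.05, beside 19.8% of genes. The median log2 fold change of the 5 was -0.11, beside 0.010 over all genes tested. Abundant genes were shifted in this comparison: the median was 0.11 over the 2849 tested genes whose mean reached 1000. Relative to that shift the members stood at -0.25 (AlaRS), -0.21 (alpha-PheRS), 0.11 (AsnRS), -0.25 (AspRS) and 0.020 (ArgRS), and still none was called. With fewer ants the recovered SEs were larger than in gamergates, with a median of 0.15. The 95% intervals spanned folds from 0.753 for alpha-PheRS to 1.51 for AsnRS.

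**Figure D2:**
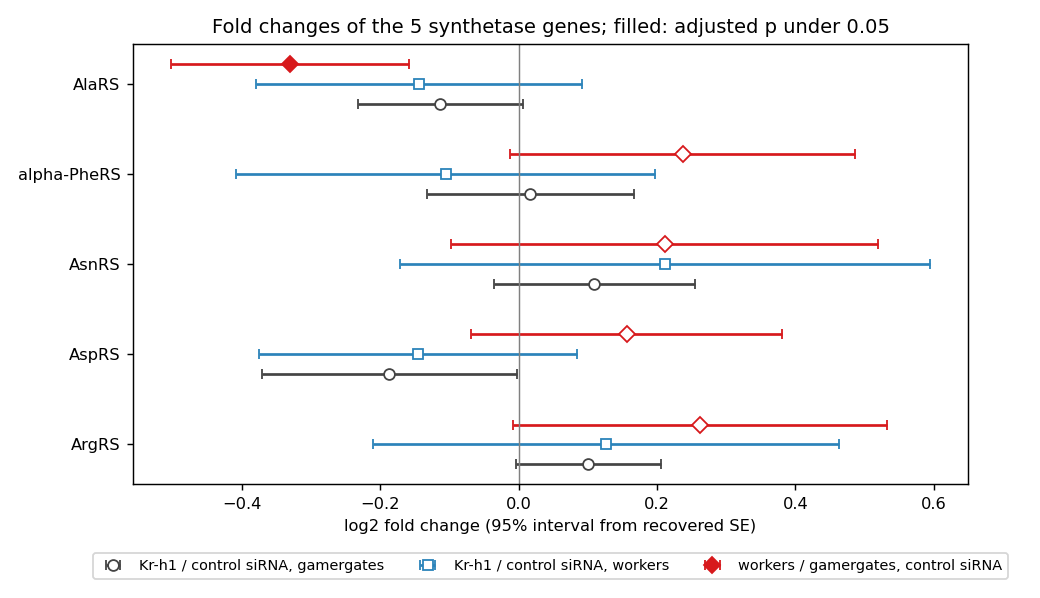
Log2 fold changes of the 5 synthetase genes (horizontal axis) with 95% intervals from the recovered SE, for Kr-h1 against control siRNA in gamergates (circles) and workers (squares) and for workers against gamergates with control siRNA (diamonds). Filled symbols mark an adjusted p under 0.05, which holds for AlaRS between castes (-0.33) and for no other point.

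The responses of both castes to Kr-h1 siRNA were then compared gene by gene, with a z test on the deposited fold changes and recovered SEs over 12509 genes. The knockdown comparisons share no ant. None of the 5 genes passed, beside 7.91% of all genes, and 0 had an unadjusted p under 0.05, beside 24.8%. The worker response minus the gamergate response was -0.031 for AlaRS (SE 0.13), -0.12 for alpha-PheRS (SE 0.17), 0.10 for AsnRS (SE 0.21), 0.041 for AspRS (SE 0.15) and 0.025 for ArgRS (SE 0.18). The adjusted p of the z test across all genes, built on the DESeq2 values, ran from 0.710 for alpha-PheRS to 0.951 for ArgRS. The 95% intervals of these differences reached from -0.46 for alpha-PheRS to 0.51 for AsnRS on the log2 scale.

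Between castes with control siRNA, AlaRS fell in worker relative to gamergate ovaries and the other 4 genes had higher means in workers without passing the test. AlaRS had a group mean of 1292 counts in control gamergates and 1028 in control workers, so that the worker mean fell by 20.5%. Its log2 fold change in the authors' deposited table was -0.33 (recovered SE 0.088, adjusted p = 5.24e-04, DESeq2), with a 95% interval from -0.50 to -0.16. With the trend of fold changes along mean count taken out, the value became -0.20 and the adjusted p from the DESeq2-derived SE 0.0407, just inside the threshold. ArgRS had 1180.4 counts in gamergates and 1416 in workers, a deposited log2 fold change of 0.26 (recovered SE 0.14, adjusted p = 0.0970, DESeq2). alpha-PheRS had 1093 and 1288 counts, a deposited log2 fold change of 0.24 (recovered SE 0.13, adjusted p = 0.105, DESeq2). Both lie near the threshold, with intervals that just include 0. AsnRS had 1672 and 1936 counts and AspRS 2085 and 2324, with log2 fold changes of 0.21 and 0.16 in the authors' deposited table (adjusted p = 0.258 and 0.249, DESeq2).

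The members' count of 1 call, in the lower direction, stands beside 53.2% of 12338 genes called between castes, 27.2% higher and 26.0% lower in workers. AlaRS was also the 1 member with an unadjusted p under 0.05, beside 55.6% of genes. The median size of change of the 5 was 0.24 on the log2 scale and that of all genes tested 0.56. The split of calls depended on scaling. As deposited, 0 members were higher and 1 lower. Centred on the median of abundant genes, which was -0.082, 3 members were called, with alpha-PheRS (0.32) and ArgRS (0.34) higher. With the trend on mean count removed, 4 members were called, with AspRS (0.29) higher as well. The direction of each member was the same under these scalings. The distance between AlaRS and ArgRS was 0.59 on the log2 scale, or 1.51-fold, as deposited and when centred, and 0.57 with the trend removed. It was not tested because the table does not hold how the genes vary together between ants.

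Marker genes of several cell types were called in the same comparison as AlaRS. Their counts stand beside 53.2% of all genes tested, 27.2% higher and 26.0% lower in workers. Of 6 muscle markers found and tested of 7 listed, 5 were called higher in control workers, and their summed group means were 11417 counts in workers and 2879 in gamergates. Of 4 fat body markers found of 6, 3 were higher (8377 and 1058 counts, mostly apolpp). The 3 germline markers found of 8 were all higher (17818 and 11062 counts). Of 5 follicle cell markers tested, of 6 found, 3 were lower in workers (3358 and 16806 counts). The highest means in that sum were those of ndl (4124 counts) and yellow-g (2541 counts), which had no adjusted p. Of the 3 nerve markers found of 4, 2 were higher and 1 lower (1299 and 1410 counts), and both haemocyte markers found, Hml and Pvr, were lower (1076 and 2282 counts). No marker found had a mean of 0. The part of such cells in the AlaRS difference was not tested.

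Some of the same markers were also called with Kr-h1 siRNA, beside 14.8% of all genes tested in gamergates and 4.92% in workers. In gamergates 2 of 6 muscle markers were called higher (summed group means of 3754 counts with Kr-h1 siRNA and 2949 in controls), 2 of 4 fat body markers (2818 and 1083 counts), 2 of 3 nerve markers (1709 and 1443 counts) and 1 of 3 germline markers (13453 and 11335 counts). Of 4 follicle cell markers tested there 1 was higher and 1 lower, and the 6 found summed to 5282 and 17226 counts. That sum includes ndl, the marker called lower (log2 -3.87), and yellow-g (log2 -7.54), which had no adjusted p. Neither haemocyte marker was called (1898 and 2337 counts, 0 at an unadjusted p under 0.05, DESeq2). In workers 4 of 6 follicle cell markers were called lower (3011 counts with Kr-h1 siRNA and 3127 in controls), 1 of 4 fat body markers (3687 and 7634 counts) and 1 of 2 haemocyte markers (638 and 1001 counts). The follicle cell sum in workers includes fs(1)N, which had the highest mean of the 6 (1486 counts). It went the other way without being called (log2 0.91, adjusted p = 0.259, DESeq2). No muscle marker (5434 and 10617 counts, 2 at an unadjusted p under 0.05), germline marker (16864 and 16586 counts, 0 at that p) or nerve marker (1003 and 1196 counts, 0 at that p) was called there by DESeq2. Their part in the synthetase and other list values after Kr-h1 siRNA was not tested.

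AlaRS was again the 1 member lower in workers when the deposited fold changes were added up to compare the castes after Kr-h1 siRNA. Workers over gamergates then stood at -0.36 for AlaRS, 0.11 for alpha-PheRS, 0.31 for AsnRS, 0.20 for AspRS and 0.29 for ArgRS on the log2 scale. These sums are built from the 3 deposited comparisons and have no test of their own.

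**Figure D3:**
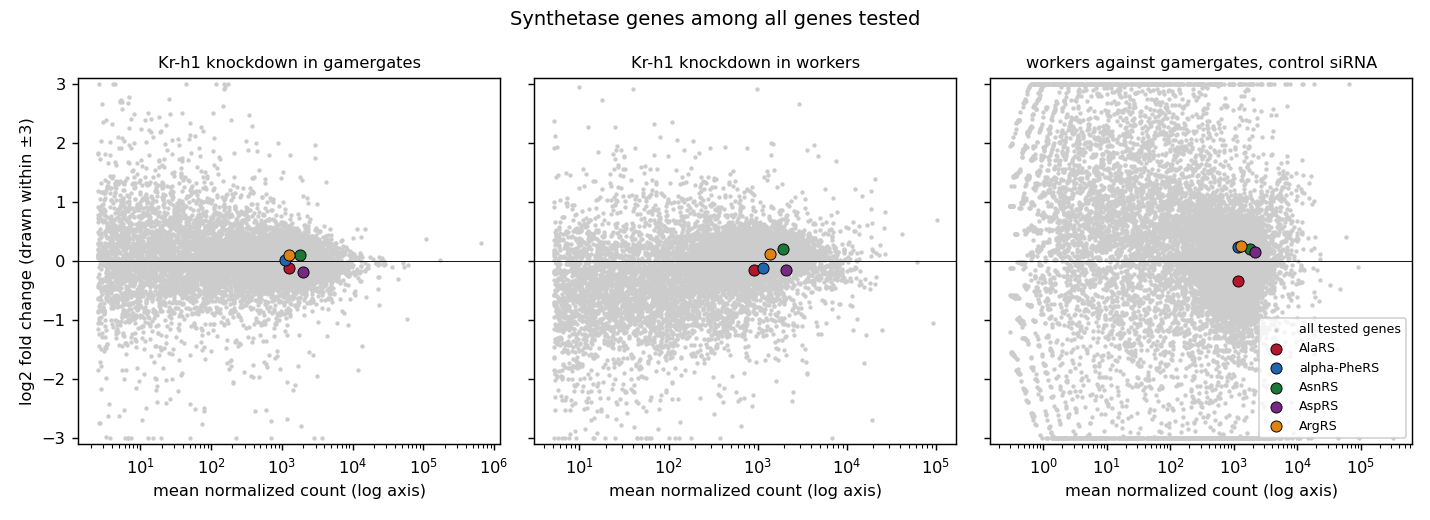
Log2 fold change (vertical axis, drawn within 3 on either side) against mean normalized count (log axis) for all genes with an adjusted p in each comparison (grey) and for the 5 synthetase genes (coloured). The members lie inside the grey band in every panel, at sizes of change above those of 4.42% (alpha-PheRS) to 45.9% (AspRS) of genes tested in gamergates.

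The fold changes of the 5 genes over the 3 comparisons were set beside each other as distances, without a test. AsnRS and ArgRS were closest to each other, with a Euclidean distance of 0.10 between their log2 fold changes over the 3 comparisons, which share control ants. Among 2684 genes with a descriptive symbol and a mean of at least 500, 19 were closer to AsnRS than ArgRS was. Those most like AsnRS were the zinc transporter gene ZnT49B, the N-glycan enzyme gene Mgat1 and the phospholipid enzyme gene Pisd (distances 0.019, 0.033 and 0.049). Those most like ArgRS were the carnitine carrier gene colt (0.028), the arginyltransferase gene Ate1 (0.034) and lute (0.048). AlaRS stood furthest from the other members, at 0.49 from AspRS, with 982 genes closer. Its nearest were the endoplasmic reticulum gene Der-2 (0.038), the endosomal GTPase gene Rab7 (0.094) and the autophagy gene Atg7 (0.0999). For AspRS they were Mtpbeta, of mitochondrial fatty acid oxidation (0.036), the TOR pathway GTPase gene Rheb (0.073) and EMC7 (0.082). For alpha-PheRS they were the peroxisome gene Pex19 (0.046), the phosphatase gene Pez (0.059) and the RNA polymerase II subunit gene RpII140 (0.062). The 95% intervals of most of the members' fold changes include 0. Exceptions are those of AlaRS between castes and of AspRS after Kr-h1 siRNA in gamergates (-0.37 to -0.0025). Recovered SEs of the members ran from 0.054 to 0.20 over the 3 comparisons, beside distances of 0.019 to 0.0999 to these nearest genes. The order of the near genes is thus not resolved.

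The partner of alpha-PheRS, beta-PheRS, was not called in any comparison either. Its log2 values in the authors' deposited table were -0.030 in gamergates, 0.20 in workers and -0.033 between castes, beside 0.017, -0.11 and 0.24 for alpha-PheRS. The 95% interval of each of these values includes 0, and the difference between the subunit genes was not tested.

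Of 15 further cytosolic synthetase genes found, all tested, 4 were called in gamergates after Kr-h1 siRNA, 2 in each direction, a share of 26.7% beside 14.8% of all genes. With the members counted in, the share was 20% of 20 genes. In the authors' deposited table IleRS rose (log2 0.30, adjusted p = 0.0388, DESeq2) and so did CysRS (0.22, adjusted p = 0.0349). TyrRS fell there (-0.28, adjusted p = 0.0384, DESeq2), as did TrpRS (-0.25, adjusted p = 0.0198). All 4 are class I enzymes like ArgRS, a grouping made after the values were seen, and none of the 10 class II genes was called by DESeq2, with 1 of them, AspRS, at an unadjusted p under 0.05. The median of the 15 was 0.0024, beside 0.017 for the 5 members. In workers 0 of the 15 were called by DESeq2, beside 4.92% of all genes, and 1, ThrRS (0.38), had an unadjusted p under 0.05. Their median there was 0.19, with 13 positive and 2 negative, and became 0.084 when centred on abundant genes and 0.066 with the trend removed. The median of the 5 members was -0.11 as deposited, -0.21 centred and -0.23 with the trend removed, and the difference from the 15 was not tested. In the test of the difference between castes, 1 of the 15 passed, a share of 6.67% beside 7.91% of all genes. It was TyrRS, whose worker response was 0.55 higher on the log2 scale (z test on DESeq2 values, adjusted p = 0.0357).

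Between castes, 6 of the 15 further cytosolic genes were called in the authors' deposited table. TyrRS (-0.60), SerRS (-0.47), LysRS (-0.41), ThrRS (-0.33) and TrpRS (-0.28) fell in workers there, as AlaRS did, and CysRS rose (0.54). The calls of ThrRS and TrpRS were lost with centring on abundant genes and with the trend on mean count removed, which left 3 lower and 1 higher of the 15. As deposited, and with the members counted in, 6 of 20 cytosolic synthetase genes were lower and 1 higher, a share called of 35% beside 53.2% of all genes. Over the same 20 genes 4 were lower and 3 higher when centred, and 4 were lower and 4 higher with the trend removed. The median of the 15 was -0.13 as deposited, -0.052 centred and -0.024 with the trend removed. That of the 5 members was 0.21, 0.29 and 0.30 in the same order, and that of all genes tested 0.045 as deposited. Of the 8 synthetases that belong to the complex in vertebrates, LysRS alone was called as deposited (12.5%), beside 50% of the 12 others and 53.2% of all genes. AspRS and ArgRS were thus not called as deposited, but ArgRS was called higher when centred and both were with the trend removed. In the authors' deposited table the 1 scaffold gene found, AIMP3, fell in workers (-0.57, adjusted p = 0.0119, DESeq2).

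**Figure D4:**
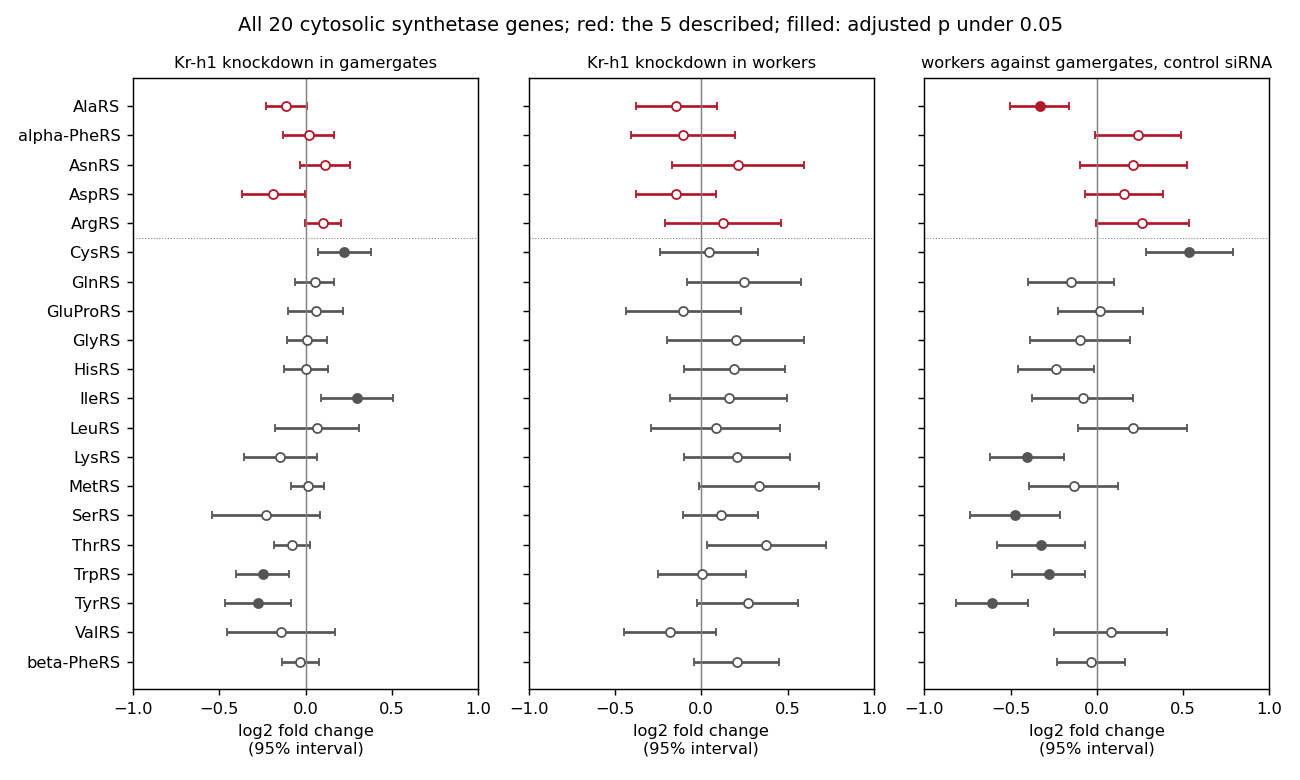
Log2 fold changes of all 20 cytosolic synthetase genes found (horizontal axis) with 95% intervals from the recovered SE, in the 3 comparisons. The 5 genes described are red and above the dotted line, and filled symbols have an adjusted p under 0.05, which gives 4 genes in gamergates, 0 in workers and 7 between castes.

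Mitochondrial synthetases, which charge tRNAs inside the organelle, are encoded by separate genes, and 14 were found and tested. In the authors' deposited table CysRS-m fell in gamergates (-0.52, adjusted p = 2.71e-04, DESeq2) and the other 13 were not called, a share called of 7.14% beside 14.8% of all genes. AlaRS-m (0.12), AsnRS-m (-0.07), AspRS-m (-0.05), ArgRS-m (-0.03) and PheRS-m (-0.22), the mitochondrial counterparts of the members, were among those 13. In workers none of the 14 was called by DESeq2, beside 4.92% of all genes, and 0 had an unadjusted p under 0.05, beside 19.8%. Between castes, 2 were higher in workers and 5 lower in the authors' deposited table. The share called was 50%, beside 53.2% of all genes, 27.2% higher and 26.0% lower. The 2 higher were ProRS-m (0.38) and ArgRS-m (0.25), and the 5 lower were CysRS-m (-0.89), IleRS-m (-0.80), AsnRS-m (-0.67), LeuRS-m (-0.55) and TyrRS-m (-0.37), whose call was lost under both other scalings (with the trend removed, ProRS-m also lost its call and AspRS-m gained one). AlaRS-m stood at -0.03 between castes and was not called (adjusted p = 0.862, DESeq2). The difference of CysRS-m between the knockdown responses was 0.73 (z test on DESeq2 values, adjusted p = 0.00315). CysRS-m was the 1 of the 14 that passed this test, a share of 7.14% beside 7.91% of all genes.

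Other genes of the path from tRNA to protein were set beside the members as lists, to be read against the 14.8%, 4.92% and 53.2% of all genes called in gamergates, in workers and between castes. Of 28 initiation factor genes, 1 rose and 4 fell in gamergates, led in adjusted p by eIF2Balpha (-0.17), eIF3k (-0.33) and eIF1A (-0.21) in the authors' deposited table, and 0 were called in workers by DESeq2 (2 at an unadjusted p under 0.05). A share of 17.9% of them was thus called in gamergates. Between castes 10 were higher and 5 lower in workers (53.6% called), led by eIF5B (0.90), eIF3e (1.11) and the helicase gene eIF4A (1.03) in the deposited table. Of 8 elongation and release factor genes, none was called in gamergates (4 at an unadjusted p under 0.05, DESeq2) or workers (0 at that p). Between castes 2 were higher and 3 lower (62.5% called), led by eEF1delta (-0.72) and the ribosome rescue gene HBS1 (-0.69) in the lower direction and by the release factor gene eRF1 (0.43) in the higher one, in the authors' deposited table. Of 55 cytosolic ribosomal protein genes, 51 were higher in workers and 0 lower (92.7% called), with a median of 0.97. After Kr-h1 siRNA in gamergates 2 of them were called lower and 0 higher (3.64% called), with 53 negative and a median of -0.20. In workers 0 were called by DESeq2 (0 at an unadjusted p under 0.05), with 48 negative and a median of -0.22. The difference between that list and the synthetase genes was not tested.

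Of 21 genes for tRNA processing and modification, 1 fell in gamergates (4.76% called), the RNase P gene Rpp30 (-0.28) in the authors' deposited table, and none rose. None was called in workers by DESeq2, with 3 at an unadjusted p under 0.05. Between castes 1 was higher and 8 lower (42.9% called), and those with the lowest adjusted p were Rpp25 (-2.23), the tRNA methyltransferase gene Mt2 (-1.72) and Elp4 (-1.68) in the authors' deposited table. Of 10 genes of the response to amino acid shortage and related stress, 4 rose and 1 fell in gamergates (50% called), led by PPP1R15 (-0.35), Sesn (0.72) and the transcription factor gene Atf3 (0.57) in the authors' deposited table. In workers 1 rose, the translation repressor gene Thor (0.48). Between castes 7 were higher and 2 lower in workers (90% called), led by Atf3 (1.55), REPTOR (0.72) and REPTOR-BP (0.59) in the deposited table. AsnS, named after its values were seen, encodes asparagine synthetase, which makes the amino acid that AsnRS attaches. In the authors' deposited table AsnS was lower in workers (-0.60, adjusted p = 7.91e-04, DESeq2), while AsnRS, at 0.21, was not called.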

How the data were processed

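Polyadenylated RNA of the ovaries of 22 single ants was sequenced from strand-specific libraries, per the labels' protocols. Tools of the authors, per the submitters' processing notes, are bcl2fastq, STAR, featureCounts and DESeq2, to which the authors' deposited p-values are credited here. Versions, settings, the build and the annotation were not given in the sources used here. A table deposited by the authors holds mean normalized counts, log2 fold changes, p-values and adjusted p-values for 3 comparisons and 0 further value columns. It holds no value per ant, so depth is unknown, a test from counts was not possible, and the planned one was replaced by the deposited calls at an adjusted p of 0.05, as the design allowed for. Deposited adjusted p-values equal a Benjamini-Hochberg adjustment to within 0.0018. Computed here with Python 3.11.15, pandas 2.3.3, numpy 2.4.6 and scipy 1.17.1 were SEs (fold change over the normal quantile of p, assuming a Wald test), 95% intervals, group means and the z test of the difference. The calculations of the z test and of the split were checked on made-up values. Whether the Wald assumption holds for these data was not tested, because the table holds no value per ant. The groups follow the labels' titles. Where nothing says that ants came from separate colonies, p-values measure the spread between these ants.

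Symbols were taken from RefSeq, assembly Hsal_v8.6 (13681 of 13693 IDs matched) and were matched to lists by exact spelling. Nos and vg were not matched to the marker lists, since in flies these symbols name other genes. The lists of 8 germline and 6 fat body markers still count Nos and Vg among those not found. The members and lists were chosen with earlier results of these data known. Named beside the members and Kr-h1 were all called synthetases, up to 3 called genes per list and comparison with the smallest adjusted p, and the 3 genes nearest to each member. Exceptions are the marker genes, beta-PheRS, AIMP3, the uncalled mitochondrial counterparts, ThrRS in workers and AsnS. The result of 1 gene of the tRNA processing list is not reported here.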

Additional observations from a re-analysis of the deposited data

How the results depend on the processing

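Adjusting p-values with no filter on mean count or over genes with a mean of at least 50, centring on genes with a mean of at least 1000, removing the trend on mean count (a running median) and a threshold of 0.1 left 0 members called in both knockdown comparisons and in the difference between them. Between castes the count of 1 became 3 with centring, 4 with the trend removed and 2 at the threshold of 0.1, where ArgRS joins AlaRS. AlaRS was called between castes under each of these settings. Of 105 single-gene values under alternatives, 93 kept direction and side of the threshold, 6 became called and 6 changed sign. Only centring and removing the trend alter a fold change, so a direction could not change under the other settings. The sign changes were all in the difference of the knockdown responses, where centring gave -0.011 for AsnRS, -0.073 for AspRS and -0.088 for ArgRS, and removing the trend gave -0.016, -0.065 and -0.12. By construction these settings subtract a shift of 0.092 to 0.15 on the log2 scale. A further adjustment over genes with an adjusted p in both castes, added after the data were seen, called 0 members in that difference. Group means of the controls computed from the caste comparison differed from those above by -0.036 to -0.035 on the log2 scale in gamergates and 0.10 to 0.11 in workers, each less than 1 recovered SE, because each comparison was normalized separately. No paired analysis was possible because the table holds no value per ant; for the same reason DESeq2 from counts and fits that leave out an ant were not run.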
